A study of Mus musculus with 4 samples.

Results

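The tissue kallikreins Klk5 to Klk14 are 10 secreted serine proteases whose genes lie side by side on mouse chromosome 7. They were chosen by gene symbol on the array, which carried 11 probes for them, 1 for each of 9 genes and 2 for Klk12, among 39426 probes for 30340 genes or targets. Their RNA was measured in keratinocytes freed with 0.05% collagenase A from the whole skin of newborn C57BL/6 mice. After 3 days of culture the cells spent 48 h in medium with or without 1 mM CaCl2, the usual trigger of differentiation in such cultures. The 4 groups were Pla2g2f-/- cells with CaCl2, Pla2g2f-/- cells without it, Pla2g2f+/+ cells with CaCl2 and Pla2g2f+/+ cells without it. Pla2g2f encodes a secreted phospholipase A2, and the series asks how its loss bears on keratinocyte differentiation and activation. RNA was pooled from 6 mice per genotype and 1 array was run per group, so the differences below cannot be tested against replicates, and genotype cannot be told apart from cell preparation. All 5 comparisons below are built from the same 4 arrays and are not independent of each other. The labels used here do not say which part of Pla2g2f is deleted.

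Epidermal kallikreins are made as inactive precursors by the upper, differentiating layers of the epidermis and are released into the spaces between the outermost dead cells. There they activate one another, cut the desmosome proteins that hold the dead cells together and so let the skin shed, and inhibitors such as the Spink5 product LEKTI hold them in check. In human skin, excess activity after loss of SPINK5 causes Netherton syndrome, a disease of a leaking, inflamed skin barrier.

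The cells carried the keratinocyte markers. All 14 basal keratinocyte genes listed, Krt5 and Krt14 among them, were well above background on each of the 4 arrays. Of 12 suprabasal genes on the array 8 were, while Krt1, the keratin of the first differentiating layer, was well above background on 2 arrays only. Between 67.0% and 68.6% of probes passed that mark by array, and 19227 genes passed it on all 4. The Pla2g2f probe was well above background on every array, with a relative signal of 0.0866 and 0.0729 in -/- cells with and without CaCl2, and 0.122 and 0.0982 in +/+ cells with and without it. Relative signal is the scanner's background-corrected signal divided by the 75th percentile of its array. It serves to compare 1 gene between arrays and not different genes with each other, because probes bind with different strength.

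In their order on the chromosome the genes run Klk14, Klk13, Klk12, Klk11, Klk10, Klk9, Klk8, Klk7, Klk6 and Klk5. Their probes span 156.2 kb of the mm9 build, with gaps between neighbouring genes of 4.5 kb (Klk11 to Klk10) to 46.6 kb (Klk13 to Klk12). The probes of the genes that differed most lie at chr7:51106492-51106551 (Klk5), chr7:51086977-51087036 (Klk6), chr7:51071388-51071447 (Klk7) and chr7:51034552-51034611 (Klk11). The files give positions without exons. Of the 11 probes 5 hold the polyadenylation hexamer AATAAA, those of Klk5, Klk7, Klk9 and Klk13 and the second one of Klk12. The probes of Klk14, Klk10 and Klk8 are printed to show what the array reads. The Klk14 probe, at chr7:50950330-50950389, ends in the letters TGA, in capitals, a stop triplet. The Klk10 probe has 60 bases, but its position, chr7:51039077-51039720, spans 644, so the transcript it reads is joined across a gap in the genome. The Klk8 probe lies at chr7:51057455-51057514.
Klk14 probe: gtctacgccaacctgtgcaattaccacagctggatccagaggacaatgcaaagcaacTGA
Klk10 probe: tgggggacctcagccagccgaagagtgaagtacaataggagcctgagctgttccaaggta
Klk8 probe: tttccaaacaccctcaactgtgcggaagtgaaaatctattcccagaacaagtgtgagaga

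The starts of the genes whose level differed most between genotypes are shown next, because Klk5, Klk6 and Klk7 were higher and Klk11 lower in -/- cells. Each is the 250 bases before the first RefSeq start site of the gene in the GRCm38.p6 build, on the plus strand, at chr7:43842019-43842268 (Klk5), chr7:43824294-43824543 (Klk6), chr7:43811044-43811293 (Klk7) and chr7:43774367-43774616 (Klk11). Capitals mark GGGTG or its complement CACCC, the core bound by KLF factors such as Klf4, a factor of the differentiating epidermis.
Klk5: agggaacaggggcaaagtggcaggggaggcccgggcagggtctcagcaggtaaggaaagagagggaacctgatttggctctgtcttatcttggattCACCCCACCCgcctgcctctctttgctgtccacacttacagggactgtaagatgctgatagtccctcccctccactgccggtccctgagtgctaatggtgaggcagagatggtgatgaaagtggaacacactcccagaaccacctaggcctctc
Klk6: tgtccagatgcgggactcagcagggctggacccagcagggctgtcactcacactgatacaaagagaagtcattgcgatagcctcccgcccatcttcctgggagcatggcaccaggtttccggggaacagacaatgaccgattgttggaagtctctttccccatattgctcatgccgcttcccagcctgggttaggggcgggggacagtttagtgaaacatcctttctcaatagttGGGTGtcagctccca
Klk7: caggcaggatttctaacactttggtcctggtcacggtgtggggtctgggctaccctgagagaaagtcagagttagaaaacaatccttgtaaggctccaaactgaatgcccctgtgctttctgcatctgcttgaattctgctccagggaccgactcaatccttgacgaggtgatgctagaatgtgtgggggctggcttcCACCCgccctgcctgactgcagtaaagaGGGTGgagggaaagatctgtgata
Klk11: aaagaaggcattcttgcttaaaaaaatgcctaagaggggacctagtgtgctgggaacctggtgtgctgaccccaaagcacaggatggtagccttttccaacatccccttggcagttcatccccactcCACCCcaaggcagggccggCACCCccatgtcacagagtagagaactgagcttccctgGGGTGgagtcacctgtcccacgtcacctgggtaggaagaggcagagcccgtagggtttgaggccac
All 10 genes matched the RefSeq table, with 12 start windows in all. GGGTG was present on either strand in 9 of the 12 windows, which belong to 9 of the 10 genes, against 52.0% of 32851 windows of the same length over all genes. The window of Klk8 and the second windows of Klk6 and Klk11 held none. The AP-1 site TGANTCA, the grainyhead-like site AACCNGTT and the TATA box TATAAA, each searched on both strands, were in 0 of the 12 windows, against 6.75%, 1.79% and 12.4% of all windows. GC content was 56.8%, 55.2%, 52.4% and 56.8% in the windows shown for Klk5, Klk6, Klk7 and Klk11. These are matches of letters in short windows and say nothing of what binds there.

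Klk5, a trypsin-like protease that in human skin activates itself and other kallikreins, had a relative signal of 2.17 in -/- cells with CaCl2 and 0.169 in -/- cells without, and of 0.718 in +/+ cells with CaCl2 and 0.0665 in +/+ cells without. Klk7, the chymotrypsin-like enzyme first isolated from the human stratum corneum, had 5.42 and 0.303 in -/- cells with and without CaCl2, and 2.46 and 0.0840 in +/+ cells with and without it. Klk6, a trypsin-like protease also known from the brain, had 6.94 and 0.344 in -/- cells, and 2.01 and 0.0558 in +/+ cells, again with CaCl2 before without. All 3 genes had one order over the arrays. Each was highest in -/- cells with CaCl2, next in +/+ cells with CaCl2, then in -/- cells without and lowest in +/+ cells without.

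Klk8, neuropsin, a trypsin-like protease studied in mouse hippocampus and skin, had a relative signal of 3.99 and 1.23 in -/- cells with and without CaCl2, and 4.90 and 1.04 in +/+ cells with and without it. Klk10, first described in human breast epithelium as normal epithelial cell-specific 1, had 1.27 and 0.219 in -/- cells, and 1.15 and 0.266 in +/+ cells, in the same order of media. For both genes the cultures with CaCl2 stood above those without, whatever the genotype, and the 2 genotypes lay close together within a medium.

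Klk11, another trypsin-like member of the family, had a relative signal of 0.381 and 0.202 in -/- cells with and without CaCl2, and 1.05 and 0.415 in +/+ cells with and without it. Its signal in -/- cells with CaCl2 was below that in +/+ cells without, as was that of Klk12 but of no other measured member. Klk9 had 0.134 and 0.103 in -/- cells, and 0.197 and 0.0953 in +/+ cells, with and without CaCl2. Klk12 had 0.0492 and 0.0385 in -/- cells, and 0.0629 and 0.0589 in +/+ cells, with and without CaCl2. The second Klk12 probe was well above background only in +/+ cells with CaCl2, at 0.0149.

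Klk13 and Klk14 were not well above background on any array. Their measured relative signals were 0.00625 to 0.00899 for Klk13 and 0.00221 to 0.0136 for Klk14, on each array below the lowest signal that counts as well above background there, 0.0108 to 0.0149 by array. Klk14, a trypsin-like protease active in human stratum corneum, thus had only an upper bound here, and so had Klk13. The other 8 passed on each of the 4 arrays, and the counts below are over these 8 and not over all 10. The scanner's own error of a log2 level was 0.14 to 0.18 for their brightest probes. It covers noise within 1 array and no spread between cultures.

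**Figure D1:**
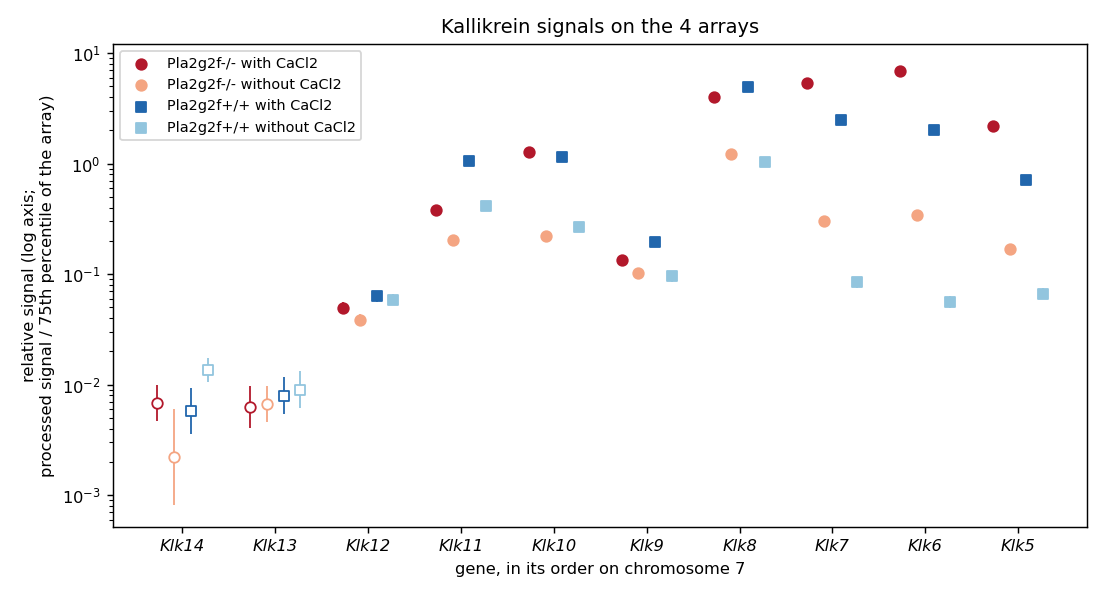
Relative signal of each kallikrein on the 4 arrays (log axis), in the order of the genes on chromosome 7; bars are the scanner's own error and open symbols are signals not well above background. Klk5, Klk6 and Klk7 at the right cover the widest range between arrays, and Klk13 and Klk14 at the left are open on every array.

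Added CaCl2 went with higher kallikrein signals in both genotypes. In -/- cells Klk6 was 20.1-fold higher with CaCl2 than without, Klk7 17.9-fold, Klk5 12.9-fold, Klk10 5.79-fold and Klk8 3.25-fold. Klk11 (1.89-fold), Klk9 (1.31-fold) and Klk12 (1.28-fold) were higher by less than 2-fold. So 5 of the 8 measured genes were higher by 2-fold or more and 0 lower by as much, where 2.99% of 21428 genes compared were as much higher and 0.602% as much lower. The median log2 difference of the 8 was 2.12, against -0.03 over all genes compared. Klk6 ranked 12th, Klk7 17th and Klk5 27th among the 21428 by this difference.

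In +/+ cells Klk6 was 35.9-fold higher with CaCl2 than without (log2 5.17, and 4.48 with normexp background correction), Klk7 29.3-fold, Klk5 10.8-fold, Klk8 4.72-fold and Klk10 4.33-fold. Klk11 (2.53-fold) and Klk9 (2.07-fold) also passed 2-fold, Klk9 not with normexp (log2 0.80), and Klk12 (1.07-fold) did not. That is 7 of 8 higher by 2-fold or more and 0 lower by as much, where 2.47% of 21129 genes compared were as much higher and 1.01% as much lower. The median log2 difference was 2.18, against -0.07 over all genes compared. Klk6 ranked 4th and Klk7 7th of 21129, while Klk5 ranked 59th. For Klk12 the log2 difference of 0.10 in +/+ cells was smaller than its scanner error of 0.24. Its second probe gave only a bound of at least 1.00-fold, which does not tell whether it responded. With the mean of both probes Klk12 was at log2 0.75 in +/+ cells and 0.83 in -/- cells. Of 12 suprabasal markers 9 in -/- cells and 8 in +/+ cells were also higher by 2-fold or more with CaCl2, while Tgm3 was at log2 0.01 in -/- and -0.16 in +/+ cells and Krt10 at 0.20 and 0.46. The list's summed relative signal was 37.9 and 7.96 in -/- cells with and without CaCl2 and 48.1 and 5.46 in +/+ cells. Such a sum is weighted to bright probes, here Sbsn with 21.3 of the 37.9. In these pooled cultures more cells of a differentiated type and more RNA per cell cannot be told apart.

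**Figure D2:**
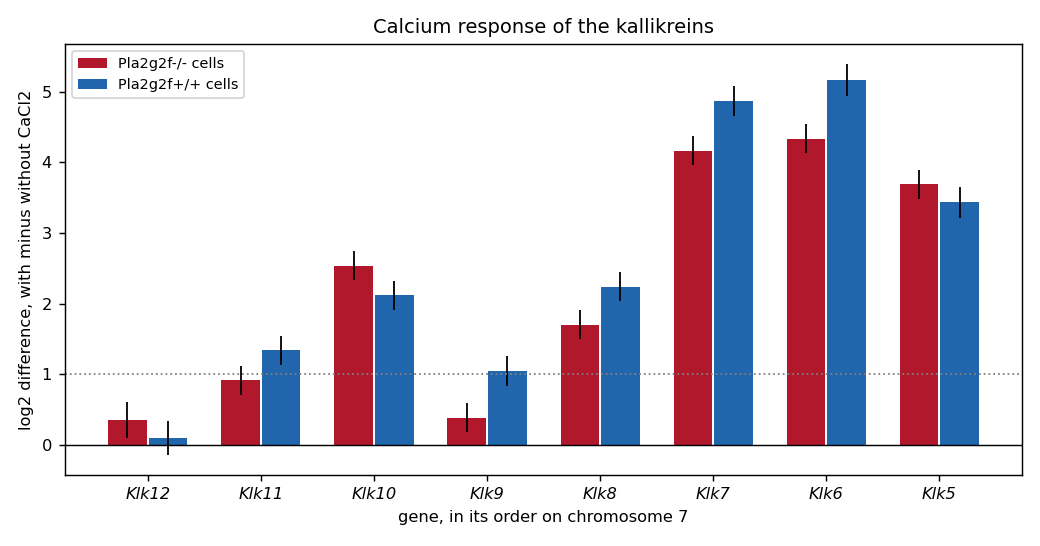
Log2 difference with minus without CaCl2 for the 8 measured kallikreins in -/- cells (red) and +/+ cells (blue); black bars are the scanner's own error and the dotted line is 2-fold. Klk7, Klk6 and Klk5, at one end of the cluster, are above 3 in both genotypes, and Klk12 is lowest in both.

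Along the chromosome the 3 genes with the highest calcium response, Klk7, Klk6 and Klk5, are neighbours at one end of the row. The named genes beyond them did not share it. Klk4, next to Klk5, had log2 calcium responses of 0.46 in -/- cells and -0.18 in +/+ cells, and Klk1b8 had 0.21 and -0.23. Klk15 was not well above background on any array. Beyond Klk14, Siglece had 0.01 in -/- cells and 0.09 in +/+ cells, Ctu1 had -0.01 and 0.02, and Ceacam18 was not well above background on any array.

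Between genotypes the members differed in direction. With CaCl2, Klk6 was 3.46-fold higher in -/- than in +/+ cells, Klk5 3.03-fold and Klk7 2.20-fold, while Klk11 was 2.75-fold lower. Klk10 (1.10-fold higher), Klk8 (1.23-fold lower), Klk9 (1.47-fold lower) and Klk12 (1.28-fold lower) stayed within 2-fold, and with arrays scaled to the basal genes Klk8 and Klk12 turned to log2 0.11 and 0.06. The 3 genes higher and 1 lower, of 8, stand beside 6.55% of 21564 genes compared higher by 2-fold or more and 3.05% lower by as much. The median log2 difference of the 8 was -0.08, against -0.16 over all genes. Relative to that all-gene shift the log2 differences were 1.95 for Klk6, 1.75 for Klk5, 1.30 for Klk7 and -1.31 for Klk11.

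Without CaCl2 Klk5, Klk6 and Klk7 were again higher. Klk6 was 6.17-fold higher in -/- than in +/+ cells, Klk7 3.61-fold and Klk5 2.54-fold, and Klk11 was 2.05-fold lower. Klk8 (1.18-fold higher), Klk9 (1.08-fold higher), Klk10 (1.21-fold lower) and Klk12 (1.53-fold lower) stayed within 2-fold, and Klk10 turned to log2 0.05 with scaling to the basal genes. The 3 higher and 1 lower stand beside 4.65% of 21346 genes compared that were higher by 2-fold or more and 4.32% lower by as much. The median of the 8 was 0.17, against -0.18 over all genes, and relative to that shift Klk6 was at 2.80, Klk7 at 2.03, Klk5 at 1.52 and Klk11 at -0.86. Klk5 came just short of 2-fold with normexp, at log2 1.00 after rounding. The Klk11 difference fell short of 2-fold with arrays scaled to the basal genes (log2 -0.71) or corrected by normexp (-0.98).

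**Figure D3:**
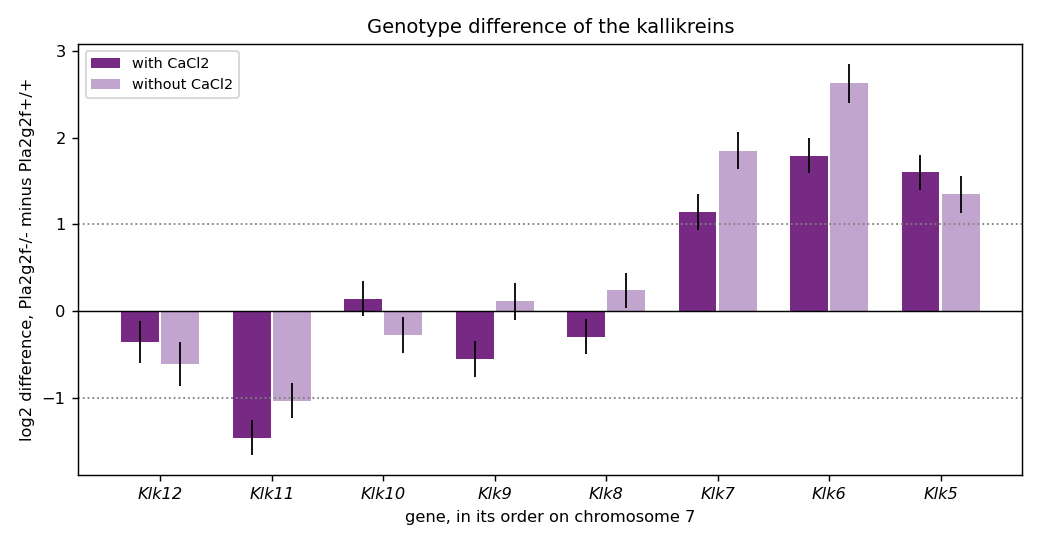
Log2 difference of -/- minus +/+ cells for the 8 measured kallikreins, with CaCl2 (dark) and without (light); black bars are the scanner's own error and dotted lines are 2-fold either way. Klk7, Klk6 and Klk5 are above the upper line in both media and Klk11 is below the lower line in both.

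Some lists of markers of other skin cells moved with genotype as well, and others moved little or the other way. Of all genes compared, 6.55% were at least 2-fold higher in -/- cells with CaCl2 and 3.05% lower, and 4.65% and 4.32% without. A macrophage and Langerhans cell list had a summed relative signal of 33.3 and 23.5 in -/- cells with and without CaCl2, against 6.80 and 7.65 in +/+ cells, and 8 of its 10 compared genes were at least 2-fold higher in -/- cells with CaCl2 and 7 of 10 without. Cd207, which defines Langerhans cells, was not well above background on any array. A mast cell list summed to 11.5 and 11.6 in -/- cells, against 1.68 and 1.53 in +/+ cells, with 8 of 8 compared genes at least 2-fold higher in both media and Ms4a2 not well above background anywhere. An adipocyte list summed to 145 and 181 in -/- cells, against 37.6 and 57.4 in +/+ cells, again with 8 of 8 in both media. A fibroblast list summed to 189 and 175 in -/- cells, against 103 and 117 in +/+ cells, with 5 of 9 compared genes at least 2-fold higher in -/- cells with CaCl2 and 1 of 9 without. The basal keratinocyte list summed to 321 and 412 in -/- cells, against 451 and 506 in +/+ cells, and the suprabasal sums given above were lower in -/- cells with CaCl2 and higher without. Gene by gene the suprabasal list was split with CaCl2. Scel and Dsc1, 2 of 12 compared, were at least 2-fold higher in -/- cells, and Lor, Cnfn and Tgm1 were 3 that were lower. Its median log2 difference was -0.26, against -0.16 over all genes. Without CaCl2 2 of 10 were higher and 0 lower. In each medium a neutrophil list had 0 of 6 compared genes at least 2-fold higher in -/- cells and 2 lower. A melanocyte list had 0 of 6 either way, and a hair follicle list 1 of 7 higher and 0 lower in each. An endothelial list had 1 of 5 higher with CaCl2 and 1 of 6 lower without. A sebaceous and sweat gland list had 3 of 7 higher and 0 lower in each medium. A skeletal muscle list had 2 of 3 higher with CaCl2 and 3 of 4 without. The part of these shifts in the kallikrein differences was not tested.

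The calcium response itself was set between genotypes as the log2 response in -/- cells minus that in +/+ cells. It was -0.83 for Klk6, -0.71 for Klk7, -0.66 for Klk9, -0.54 for Klk8 and -0.43 for Klk11, and it was 0.42 for Klk10, 0.26 for Klk12 and 0.25 for Klk5. None of the 8 reached a 2-fold difference, where 1.91% of 19227 genes were at least 2-fold above 0 and 0.629% at least 2-fold below. The median of the 8 was -0.48, against 0.02 over all genes. The scanner error of such a difference was 0.29 to 0.35, so those of Klk5 and Klk12 were within it. With normexp Klk6 and Klk7 were at -0.30 and -0.32, about the size of that error, and Klk5 was at 0.59, beyond it. Which members differed most in response thus depended on the background correction. Of 8 compared suprabasal markers, 4 were at least 2-fold below 0 and 0 as much above, with 2 above 0 and a median of -0.93.

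The members were also set against each other and against all other genes by profile, the 4 log2 values of a gene minus their own mean, with the root mean square distance between 2 profiles as the measure. Klk6 and Klk7 lay 0.38 apart, and among 19227 genes 0 were nearer to Klk7 than Klk6 was and 1 was nearer to Klk6 than Klk7 was. Klk5 was nearest to Klk7 at 0.54, with 8 other genes nearer still. Klk8 and Klk10 lay 0.30 apart, with 32 and 31 other genes nearer to them. Klk9 and Klk12 were each other's nearest member at 0.36, but 2811 and 13906 other genes were nearer. Klk11 was nearest to Klk9 at 0.56, with 784 genes nearer. Profiles were not scaled to equal size, so these counts of nearer genes also depend on how large a gene's differences are. By themselves they do not show that 1 pair is more alike than another. The mean profile of the 8 members joins genes with opposite genotype differences and with large and small calcium responses, so it need not describe any of them. The 5 named genes closest to that mean profile were Acp7 (0.10), Sbsn (0.13), Cldn3 (0.14), Sowahb (0.16) and Zfp750 (0.18), over 4 arrays. Sbsn, for example, had a relative signal of 21.3 and 5.43 in -/- cells with and without CaCl2 and of 21.7 and 3.25 in +/+ cells.

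Among the inhibitors of these proteases, Spink5 had a relative signal of 18.5 and 2.51 in -/- cells with and without CaCl2, and 20.3 and 2.40 in +/+ cells. Its calcium response was 7.37-fold in -/- and 8.47-fold in +/+ cells, and it was 1.10-fold lower with CaCl2 and 1.05-fold higher without in -/- than in +/+ cells. Of the compared inhibitors, 1 of 11 in -/- cells and 3 of 12 in +/+ cells were at least 2-fold higher with CaCl2 and 0 lower, with median log2 responses of 0.13 and 0.26. Over all genes compared 2.99% and 2.47% were as much higher and 0.602% and 1.01% as much lower, with medians of -0.03 and -0.07. Between genotypes 2 of 12 were higher by that much and 2 lower with CaCl2, and 2 of 11 higher and 1 lower without, with medians of -0.37 and -0.27. Of all genes compared 6.55% were higher and 3.05% lower with CaCl2, and 4.65% and 4.32% without, with medians of -0.16 and -0.18. The same all-gene values stand beside the lists in the next paragraphs. Slpi, the secretory leukocyte peptidase inhibitor, had 7.52 and 3.94 in -/- cells, against 30.0 and 14.0 in +/+ cells, so it was 3.98-fold lower with CaCl2 and 3.57-fold lower without. Serpina3n, a serpin, had 8.23 and 7.53 in -/- cells, against 2.26 and 3.61 in +/+ cells. Wfdc12 was at least 3.14-fold higher in -/- cells with CaCl2 and 2.39-fold higher without. Spink6, another inhibitor of the LEKTI family, was at least 1.78-fold lower in -/- than in +/+ cells with CaCl2, and that +/+ array was the one on which it was well above background.

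Proteases known or proposed to activate kallikreins had median log2 calcium responses of 1.02 in -/- and 0.58 in +/+ cells, with 7 of 14 and 5 of 12 compared genes at least 2-fold higher and 0 lower. These medians and counts are not over the same genes. Plg (at least log2 1.29, among the 7) and Tmprss11d (at least 0.85) were compared in -/- cells only. Each was well above background on 1 array, that of -/- cells with CaCl2. Prss8, the membrane-anchored protease prostasin, had a relative signal of 1.25 and 0.313 in -/- cells with and without CaCl2, and 2.57 and 0.457 in +/+ cells. It was 2.05-fold lower in -/- cells with CaCl2 and 1.46-fold lower without. St14, matriptase, which activates prostasin, had 2.90 and 2.32 in -/- cells, and 5.19 and 3.45 in +/+ cells, and was 1.79-fold and 1.49-fold lower in -/- cells with and without CaCl2. Tmprss11e was 2.94-fold higher in -/- cells with CaCl2 and at least 2.07-fold higher without. Tmprss13 and Tmprss4, membrane serine proteases, were 3.38-fold and 3.80-fold higher with CaCl2 in -/- cells and 4.08-fold and 2.42-fold higher in +/+ cells. Between genotypes 1 of 14 was higher and 2 lower with CaCl2 (median 0.31), and 1 of 12 higher and 1 lower without (median -0.05). Plg and Tmprss11d were again compared only with CaCl2.

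Of the substrates and receptors, 7 of 15 compared genes were at least 2-fold higher with CaCl2 in -/- cells and 7 of 15 in +/+ cells, with 0 lower and medians of 0.65 and 0.80. Cdsn, corneodesmosin, a glue protein that kallikreins cut in human skin, had a relative signal of 38.6 and 3.05 in -/- cells with and without CaCl2, and 18.8 and 1.86 in +/+ cells. It was 2.06-fold higher in -/- cells with CaCl2. The desmosomal cadherins Dsg1a, Dsg1b and Dsc1 were higher in -/- than in +/+ cells with CaCl2 by 3.33, 0.79 and 1.47 on the log2 scale. Dsg1a and Dsg1b are close paralogs, so their probes may share signal. Dsg1a had a relative signal of 0.200 in -/- cells with CaCl2, against 0.0199 in +/+ cells with it, and was not well above background in either genotype without it. F2rl1, the receptor PAR2 that kallikreins can cleave, was 2.69-fold higher with CaCl2 in -/- cells and 2.23-fold in +/+ cells, and 1.29-fold higher in -/- than in +/+ cells with CaCl2. Between genotypes 3 of 15 were higher and 0 lower with CaCl2 (median 0.25), and 0 of 13 either way without (median 0.10).

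Other proteases and inhibitors of shedding had 3 of 12 compared genes at least 2-fold higher with CaCl2 in -/- cells and 3 of 11 in +/+ cells, with 0 lower and medians of 0.26 and 0.14. Cst6, cystatin M/E, an inhibitor of cysteine proteases, had a relative signal of 27.5 and 1.19 in -/- cells with and without CaCl2, and 5.55 and 0.208 in +/+ cells. It was 4.96-fold higher in -/- cells with CaCl2 and 5.74-fold higher without. Asprv1, a protease that processes filaggrin, responded 6.13-fold to CaCl2 in -/- cells and 15.5-fold in +/+ cells. Casp14, a caspase of the cornifying layer, responded 4.66-fold and 4.61-fold. Hpse, heparanase, was 2.93-fold higher in -/- cells with CaCl2. Between genotypes 2 of 12 with CaCl2 and 2 of 11 without were higher by 2-fold or more and 0 lower, with medians of 0.07 and 0.28.

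**Figure D4:**
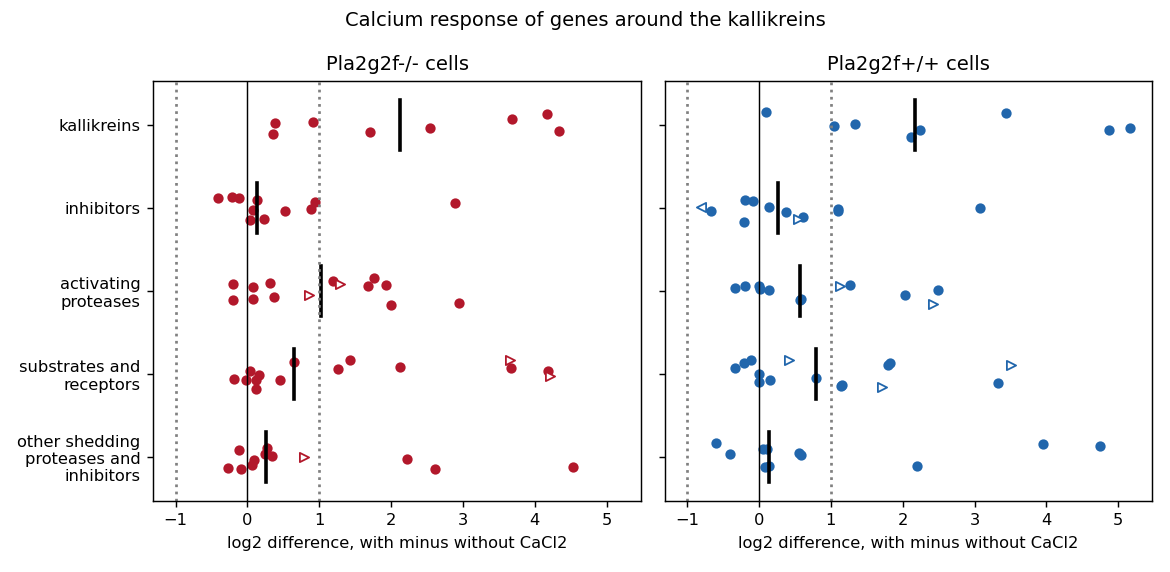
Log2 difference with minus without CaCl2 for the kallikreins and 4 gene lists around them, in -/- cells (left) and +/+ cells (right). Each point is a gene, and open triangles are bounds that point the way the difference may be larger. Black lines are medians and dotted lines are 2-fold. The kallikrein median is 2.12 in -/- cells and 2.18 in +/+ cells, and the next is that of the activating proteases in -/- cells and that of the substrates and receptors in +/+ cells.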

How the data were processed

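RNA from 4 keratinocyte samples (200 ng each, per the labels) was hybridised to 1-colour Agilent arrays. The deposited scanner intensity came from Agilent Feature Extraction 11.5.1.1, run by the authors, which subtracted background array by array, per the file headers. The deposited series value table is a ratio, each intensity over 1 constant per array (within a relative 2.31e-07), and that constant lay 0.0119% to 0.0583% above the 75th percentile computed here. Its column medians were 0.0645, 0.0612, 0.0623 and 0.066 in -/- cells with and without CaCl2 and +/+ cells with and without CaCl2.

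Starting from the scanner intensity, spots marked as outliers were dropped (116, 105, 112 and 107 in the same order) and 0 were saturated. From each log2 signal the 75th percentile (3300, 2889, 2737 and 2638 intensity units) of the 43020 spots that are not controls was subtracted. A gene was read from its brightest probe. Repeat spots of a probe had a median SD of 0.06 log2. A gene was compared where well above background on at least 1 of both arrays, and against a dim array only a bound was taken, from the higher of its own signal and the lowest signal well above background there. The genes compared in a list can therefore differ between comparisons. With 1 array per group no test was run and genes were counted at 2-fold. All arrays share 1 slide and scan time, so no batch split exists.

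Every member was named; of each other list, the genes at 2-fold or more with the 4 largest differences, with Spink5, Spink6, St14, Prss8, Dsg1a, Dsg1b, Dsc1, Cdsn and F2rl1 whatever their values; and the 5 genes nearest the members' mean profile. The members and lists were chosen with earlier results of these data known. Flg was not found on the array. Probe positions are mm9 as in the files, and promoter sequences are RefSeq, GRCm38.p6. Alternatives were quantile scaling, scaling to the median of detected probes or to 14 basal keratinocyte genes, normexp with offset 50, the authors' table, other probe rules, stricter or no dimness filters and a 3-fold threshold. Steps were tested on simulated data. Software was Python 3.11.15, numpy 2.4.6, pandas 2.3.3, R 4.3.3 and limma 3.58.1.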

Additional observations from a re-analysis of the deposited data

Results flagged for a closer look

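For 3 kallikreins the genotype difference had one sign with CaCl2 and the other without. Klk8 was at log2 -0.30 (-/- minus +/+) with CaCl2 and 0.24 without, a difference of -0.54. Klk9 was at -0.55 with CaCl2 and 0.11 without, a difference of -0.66. Klk10 was at 0.14 with CaCl2 and -0.28 without, a difference of 0.42. The values of Klk9 without CaCl2 and Klk10 with CaCl2 are within their scanner errors of 0.22 and 0.20, so the sign change of both rests on them. Each of these 6 genotype differences is below 2-fold, each group is 1 array and the differences between media were not tested. With scaling to basal keratinocyte genes, Klk8 with CaCl2 was at 0.11 and Klk10 without CaCl2 at 0.05, so for these 2 genes the opposite signs were not kept.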

How the results depend on the processing

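No paired analysis was possible because each group has 1 sample, and for the same reason no array could be left out. Several alternatives could hardly move the value of a single kallikrein. The dimness filters leave each measured value as it was, the authors' table differs by a constant per array, and other probe rules reach only Klk12. With the mean of its probes the calcium response of Klk12 was 0.83 in -/- and 0.75 in +/+ cells (0.35 and 0.10 as reported). The count that follows includes all these alternatives, so it overstates how far the values were put to the test. Of 357 values of single kallikreins under the alternatives, 349 kept their direction and their side of 2-fold. Of the other 8, 3 changed sign below 2-fold with scaling to basal keratinocyte genes, Klk8 and Klk12 with CaCl2 (0.11 and 0.06 in place of -0.30 and -0.35) and Klk10 without CaCl2 (0.05 in place of -0.28). The other 5 crossed 2-fold. They were Klk5, at 1.00 after rounding and just short of 2-fold in the genotype difference without CaCl2 with normexp (1.34 as reported), Klk11, at 1.48 in the calcium response of -/- cells (0.92 as reported) and -0.71 in the genotype difference without CaCl2 with scaling to basal keratinocyte genes, and at -0.98 in that genotype difference with normexp, and Klk9, at 0.80 in the calcium response of +/+ cells with normexp (1.05 as reported). Scaling to basal keratinocyte genes moved the median of the 8 members in the calcium response of -/- cells to 2.68, and the all-gene medians to 0.53 (-/-) and 0.40 (+/+) in the calcium responses and to 0.25 and 0.15 in the genotype differences with and without CaCl2. The count of members at least 2-fold lower in -/- cells without CaCl2, 1 as reported, was 0 with basal scaling, with normexp and at 3-fold, and 2 when genes entered whatever their signal. Of all genes compared, 1.43%, 0.881%, 0.74% and 9.83% were as much lower under these settings, in the same order. With CaCl2 the count of members lower was 0 at 3-fold, beside 0.816% of all genes. The count of members higher in -/- cells, 3 as reported in each medium, was 2 without CaCl2 with normexp and 2 in either medium at 3-fold, and the count higher with CaCl2 in +/+ cells, 7 as reported, was 6 with normexp and 5 at 3-fold. The shares of all genes fell too. In -/- cells 3.06% were higher without CaCl2 with normexp, and 3.32% and 2.16% with and without CaCl2 at 3-fold. In the calcium response of +/+ cells 1.55% were higher with normexp and 1.13% at 3-fold. With normexp the calcium response of Klk6 in +/+ cells was 4.48 (5.17 as reported), and the response differences of Klk6 and Klk7 were -0.30 and -0.32. With genes entered whatever their signal, 1 member was lower with CaCl2 in +/+ cells and 1 had a response difference above 2-fold, both through signals not well above background. Of all genes 3.62% and 10.2% did so. Over the alternatives the genotype difference with CaCl2 ranged from 1.56 to 2.01 for Klk5, 1.75 to 2.20 for Klk6 and 1.10 to 1.55 for Klk7, and without CaCl2 from 1.00 to 1.67, 2.05 to 2.95 and 1.48 to 2.18. Genes at least 2-fold higher and lower in the genotype difference without CaCl2 numbered 992 and 922 as reported, 1161 and 399 with quantile scaling, 1598 and 305 with basal scaling and 654 and 188 with normexp. The number of arrays limits the precision, and for Klk13, Klk14 and the second Klk12 probe so does signal near background.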

Other observations

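Of the 16 other tissue kallikreins on the array, Klk1, its Klk1b relatives, Klk4 and Klk15, 5 were well above background on all 4 arrays and 7 on none. Their median log2 calcium response was 0.49 in -/- cells and -0.18 in +/+ cells, with 1 of 8 and 0 of 9 compared genes at least 2-fold higher, beside 2.99% and 2.47% of all genes compared. The 1 was Klk1b24, with a relative signal of 0.0291 and 0.0134 in -/- cells with and without CaCl2, and 0.0184 and 0.0206 in +/+ cells with and without it. Klk1b5 was at least 3.65-fold lower and Klk1 at least 2.18-fold lower in -/- than in +/+ cells without CaCl2. Many of these signals lay near the lowest that counts as well above background, 0.0108 to 0.0149 by array. The calcium responses of Klk1, Klk1b5 and Klk1b9 in -/- cells and of Klk1b3 in +/+ cells were bounds. With genes entered whatever their signal, 9.83% of all genes were at least 2-fold lower in -/- cells without CaCl2 and 4.39% higher. As reported above these were 4.32% and 4.65%. The Klk1b genes are near-identical copies, so their probes may share signal.

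One transcript within the kallikrein row, 2310002F09Rik, singled out after its values were seen, had log2 calcium responses of 0.53 in -/- cells and 0.31 in +/+ cells and genotype differences of 0.27 with CaCl2 and 0.05 without.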
